A study of Mus musculus with 89 samples.

Results

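The genes described here are 10 members of the tumour necrosis factor (TNF) and NF-κB circuit, namely Tnf, Tnfrsf1b, Tnfaip3, Nfkbia, Nfkbiz, Nfkb2, Birc3, Tnfaip2, Icam1 and Vcam1. They were chosen by symbol, through the RefSeq accessions of the array's non-control probes, and are covered by 15 probes among the 22911 genes measured. Lung RNA came from female BALB/c mice, 6 to 8 weeks old at the start, that had all been sensitised to ovalbumin (OVA) with alum on days 1 and 10. On 4 consecutive days the mice were challenged by oropharyngeal aspiration with PBS (no airway allergy) or with OVA (allergic airway inflammation), alone or together with 1 of 4 copper oxide nanomaterials: core CuO or its versions with COOH, NH3 or PEG at the surface. Each material was given at 2.5, 10 or 40 μg per mouse, which makes 26 groups and 89 samples with the PBS controls (n = 7) and the OVA controls (n = 8). The exposed groups had 3 samples each, except CuO NH3 10 and CuO PEG 10, which had 4. One label gives the doses in mg where the description gives μg, and the μg value was used. Lungs were taken 24 h after the last exposure. Each sample was an independent pool of 2 RNA samples, so p-values measure the spread between pools. Group names below give the material and the dose, with "+ OVA" for OVA challenge.

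TNF is an inflammatory cytokine that acts through its receptors to release NF-κB transcription factors from their cytoplasmic inhibitors. NF-κB then switches on genes that spread the response, such as cytokines and endothelial adhesion molecules, and genes that end it, such as the inhibitor IκBα and the ubiquitin-editing enzyme A20. In the lung this circuit is active in macrophages, epithelium and endothelium during infection, allergy and particle exposure.

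Promoter windows are shown for 4 members that represent the cytokine (Tnf), the non-canonical subunit (Nfkb2) and the feedback brakes A20 and IκBα (Tnfaip3 and Nfkbia). The sequences are those of RefSeq on build GRCm38.p6, read on the gene's strand from 250 bases before to 50 bases after the start of transcription. Capitals mark matches to the NF-κB (κB) consensus GGGRNNYYCC (R is A or G, Y is C or T, N is any base). Both strands were searched, and overlapping matches run together in 1 stretch.
Tnf, chr17:35201958-35202257, minus strand: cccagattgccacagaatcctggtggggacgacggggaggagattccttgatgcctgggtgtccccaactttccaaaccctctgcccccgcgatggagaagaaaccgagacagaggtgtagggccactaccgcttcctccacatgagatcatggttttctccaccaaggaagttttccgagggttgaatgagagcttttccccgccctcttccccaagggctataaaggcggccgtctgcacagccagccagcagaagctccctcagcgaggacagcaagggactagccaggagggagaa
Nfkb2, chr19:46304487-46304786, plus strand: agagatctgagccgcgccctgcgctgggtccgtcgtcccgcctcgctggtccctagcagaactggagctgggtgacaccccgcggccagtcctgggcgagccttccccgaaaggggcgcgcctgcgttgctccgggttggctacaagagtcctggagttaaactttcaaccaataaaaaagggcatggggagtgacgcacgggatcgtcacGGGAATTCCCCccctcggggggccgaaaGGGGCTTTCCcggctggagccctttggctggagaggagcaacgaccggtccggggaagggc
Tnfaip3, chr10:19015361-19015660, minus strand: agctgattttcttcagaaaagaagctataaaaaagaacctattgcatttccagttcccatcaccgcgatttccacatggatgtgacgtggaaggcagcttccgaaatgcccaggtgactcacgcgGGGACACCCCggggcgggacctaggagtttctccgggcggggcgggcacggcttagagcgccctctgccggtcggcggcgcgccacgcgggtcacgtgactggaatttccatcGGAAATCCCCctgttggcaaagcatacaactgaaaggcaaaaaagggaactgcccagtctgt
Nfkbia, chr12:55492598-55492897, minus strand: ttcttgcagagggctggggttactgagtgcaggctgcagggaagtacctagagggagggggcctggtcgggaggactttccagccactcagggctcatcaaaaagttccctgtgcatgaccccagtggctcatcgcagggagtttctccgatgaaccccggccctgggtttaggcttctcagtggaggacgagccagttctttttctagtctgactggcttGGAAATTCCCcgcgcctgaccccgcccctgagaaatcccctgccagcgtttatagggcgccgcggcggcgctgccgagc
A match was present in 8.46% of the 32851 promoters of the same length and in 6 of the 11 member promoters. By gene, 9.55% of the 27025 genes with a promoter had a match, and so did 4 of the 8 members with a sequence. A stretch that matched on both strands counted as 2 matches, so the Nfkb2 window shown held 4, overlapping in 1 of its 2 capitalised stretches. The windows of 2 further start sites of Nfkb2 held 2 and 1, with 1 match common to both. The Tnfaip3 window shown held 3 and that of another start site 0, and those of Nfkbia and Tnfaip2 held 1 each. This pattern was not found in the windows of Tnf, Tnfrsf1b, Birc3 or Icam1. Sites that depart from the pattern or lie outside the window were not searched. Nfkbiz and Vcam1 had no entry. Matches are a description of the sequence and were not related to binding.

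All 15 probes were well above background in all 89 samples, except 1 of the 2 Tnf probes, which was so in 88. The lung epithelial markers Sftpc, Ager, Foxj1 and Scgb1a1 were well above background in 89 of 89 samples. Slides 1 to 3 carried core CuO and CuO COOH beside 3 of the PBS and 4 of the OVA controls, and slides 4 to 6 carried CuO NH3 and CuO PEG beside the other 4 of each. Levels below are quantile-normalised log2 intensities from which dye, slide and array position were removed, and they compare samples, not genes. Statements that groups do not overlap rest on these levels, and the share of all genes that separated so was not counted. Fold changes against controls come from a limma fit with dye and array as terms, which compares samples within arrays. They can therefore differ from the difference of the printed means. A gene was called when its Benjamini-Hochberg adjusted p over all 22911 genes was below 0.05 and its change exceeded 0.58 on the log2 scale.

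In the OVA controls, 3 members rose against the PBS controls and none fell, where 5.22% of all genes were called. They were Nfkb2, Tnfaip3 and Tnfrsf1b. The median log2 change of the 10 members was 0.47, against -0.01 over all genes. Nfkb2, which encodes the p100 precursor of the non-canonical NF-κB subunit p52, ran from 9.67 to 9.88 in the 7 PBS controls (median 9.85) and from 10.40 to 10.76 in the 8 OVA controls. The groups did not overlap, and the fitted change was 0.69 ± 0.13 (SE), with a limma adjusted p of 0.000886. Tnfrsf1b, the receptor TNFR2 found mainly on leukocytes and endothelium, ran from 7.91 to 8.17 in the PBS controls (median 8.00) and from 8.53 to 8.92 in the OVA controls. All OVA controls lay above all PBS controls, with a fitted change of 0.68 ± 0.17 and a limma adjusted p of 0.00736. Tnfaip3, which encodes A20, ran from 9.48 to 9.94 under PBS and from 9.82 to 10.47 under OVA, so the groups overlapped. Its fitted change was 0.69 ± 0.17 (limma adjusted p = 0.00825). It fell below the fold, with adjusted p at most 7.91e-05, with array as a random block (0.56), with dye, slide and position (0.51) and with dye and slide (0.53). With scaling to the 75th percentile the calls of Tnfaip3 (0.68, adjusted p = 0.0641) and Tnfrsf1b (0.66, 0.0501) were lost, while that of Nfkb2 held under every alternative processing.

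Tnf itself ran from 6.39 to 6.63 in the PBS controls (median 6.47) and from 6.86 to 7.35 in the OVA controls (median 7.02). These ranges did not overlap either, yet the within-array change of 0.63 ± 0.22 missed the threshold (limma adjusted p = 0.0594). Vcam1, the endothelial adhesion molecule that binds α4 integrins of lymphocytes and eosinophils, had a change of 0.53 ± 0.09 with a limma adjusted p of 0.000366, below the fold required. Icam1, which binds the β2 integrins of neutrophils and other leukocytes, had a change of -0.04 ± 0.20, and Nfkbiz, a nuclear IκB protein, one of 0.01 ± 0.11. Within slides 1 to 3 (4.69% of all genes called) the same 3 genes were called, with changes of 0.68 (Nfkb2), 0.69 (Tnfrsf1b) and 0.69 (Tnfaip3). Within slides 4 to 6 (2.08%), 0 were called by limma, although their changes were 0.70, 0.67 and 0.70. Without PBS replicate 2 or OVA replicate 3, which shared an array, the calls of Tnfrsf1b (0.68, adjusted p = 0.108) and Tnfaip3 (0.71, adjusted p = 0.105) were lost. Monocyte and macrophage markers were higher in 5 of 9 genes (median change 0.86), with a summed log2 level of 15.49 to 15.89 in the PBS controls and 15.54 to 15.72 in the OVA controls. A summed level is the log2 of the added linear intensities of a list, so its brightest genes weigh most. T cell markers were higher in 2 of 7 genes, at 11.91 to 12.36 and 12.46 to 12.78. Eosinophil markers were higher in 3 of 5 genes, with a summed log2 level of 9.11 to 9.91 in the PBS controls and 11.13 to 11.98 in the OVA controls. Alveolar macrophage markers were higher in 1 of 7 genes (median change 0.35, range -0.17 to 3.93), at 14.65 to 15.28 and 16.41 to 17.94. Endothelial markers were lower in 4 of 10 genes, at 17.15 to 17.49 and 16.55 to 16.96, and the part of these lists in the member results was not tested.

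**Figure D1:**
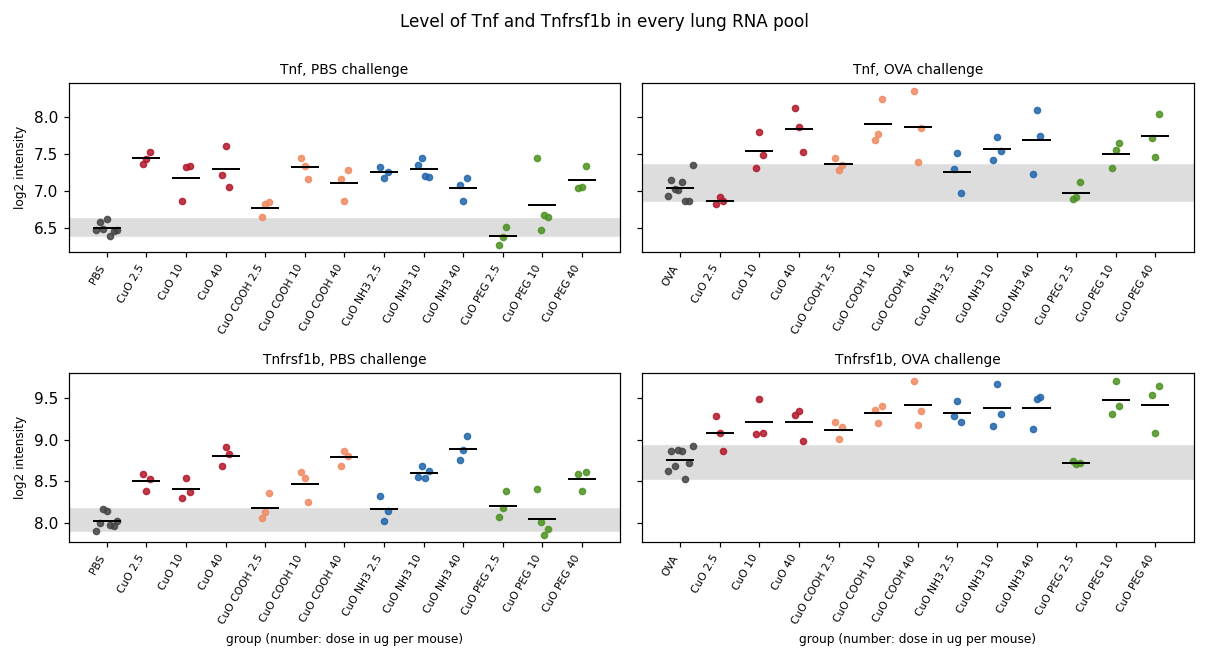
Levels of Tnf and its receptor Tnfrsf1b in every sample (vertical axis: log2 intensity; horizontal axis: groups by material and dose in μg per mouse, PBS challenge on the left and OVA challenge on the right). Points are samples, bars are group means and the grey band is the range of the controls of that challenge, which ran from 6.39 to 6.63 for Tnf under PBS and from 6.86 to 7.35 under OVA.

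Among PBS-challenged mice, 15 of the 120 pairs of exposed group and member were called, all of them higher than in the PBS controls. Tnf accounted for 5 of them, Tnfrsf1b and Nfkb2 for 3 each, Tnfaip2 for 2, and Tnfaip3 and Vcam1 for 1 each. Nfkbia, Nfkbiz, Birc3 and Icam1 had none. Members called numbered 1 for CuO 2.5 (0.903% of all genes called), 1 for CuO 10 (3.61%) and 4 for CuO 40 (14.1%). For CuO COOH they numbered 0 at 2.5 (0.358%), 2 at 10 (3.61%) and 2 at 40 (10.3%). For CuO NH3 they numbered 0 at 2.5 (0.96%), 1 at 10 (3.32%) and 4 at 40 (13.2%). For CuO PEG they numbered 0 at 2.5 (0%), 0 at 10 (0.428%) and 0 at 40 (2.23%). At an unadjusted p below 0.05, limma gave 1 member for CuO COOH 2.5, 5 for CuO NH3 2.5, and 0, 1 and 7 for the rising doses of CuO PEG.

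Tnf, the ligand that starts the circuit, was higher in all samples of 10 of the 12 exposed groups than in any PBS control, CuO PEG 2.5 and CuO PEG 10 being the exceptions. How many of all genes separated this often was not counted. Tnf was 7.37, 7.43 and 7.53 in the 3 samples of CuO 2.5, against 6.63 in the highest PBS control. The fitted changes were 1.42 ± 0.32 at 2.5 (limma adjusted p = 0.0308), 1.33 ± 0.38 at 10 (0.0483) and 1.35 ± 0.36 at 40 (0.0106) for core CuO. Between 40 and 2.5 of the core material, Tnf differed by -0.15 (95% CI -0.57 to 0.27). For CuO COOH the change was 0.58 ± 0.39 at 2.5, 1.38 ± 0.39 at 10 (limma adjusted p = 0.0444) and 0.96 ± 0.35 at 40 (0.0774). For CuO NH3 it was 0.92 ± 0.30, 0.77 ± 0.26 and 0.72 ± 0.25, of which the last was called (limma adjusted p = 0.0386). In CuO PEG 2.5 the Tnf levels of 6.28, 6.38 and 6.52 lay within or below the PBS controls (change -0.12 ± 0.34), and in CuO PEG 40 they were 7.04, 7.06 and 7.34 (0.89 ± 0.30, limma adjusted p = 0.136).

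Each of the 5 Tnf calls was lost without some single sample. For CuO 40 these were CuO 40 replicate 2 (change 1.5, adjusted p = 0.246) and PBS replicate 3 (1.08, 0.121). For CuO 2.5 they were each of its 3 samples (1.40, 1.29 and 1.77, adjusted p 0.0591, 0.106 and 0.0776) and PBS replicate 3 (1.28, 0.112). The call for CuO 10 was lost without CuO 10 replicate 2 or 3 or PBS replicate 3, 5 or 7 (1.09 to 1.33, adjusted p 0.0578 to 0.296). The call for CuO COOH 10 was lost without its replicates 1 or 3 or PBS replicate 1, 3, 5 or 7 (1.00 to 1.76, adjusted p 0.0525 to 0.388). The call for CuO NH3 40 was lost without any of its 3 samples or PBS replicate 3 or 5 (0.67 to 0.77, adjusted p 0.0597 to 0.256). Against the controls of the same slides only, 1 of the 5 Tnf calls was kept, that of CuO 40 (1.33, adjusted p = 0.0159). The changes of the others were about as large, at 1.39 in CuO 2.5 (0.0977), 1.31 in CuO 10 (0.0701), 1.37 in CuO COOH 10 (0.0556) and 0.75 in CuO NH3 40 (0.071).

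The size of the Tnf changes depended on the batch terms. With array as a random block, with dye, slide and position, or with dye and slide, Tnf changed by 0.88 to 0.94 in CuO 2.5, 0.63 to 0.68 in CuO 10, 0.76 to 0.82 in CuO 40 and 0.75 to 0.82 in CuO COOH 10, and was called in each. In CuO NH3 40 it was lost with dye, slide and position (0.53). Scaling to the 75th percentile ended all 5 calls, with changes of 1.61, 1.51, 1.56, 1.94 and 0.56 in CuO 2.5, CuO 10, CuO 40, CuO COOH 10 and CuO NH3 40 and adjusted p from 0.181 to 0.713. Normexp correction ended those of CuO 10 (1.17, adjusted p = 0.0595) and CuO COOH 10 (1.22, 0.0546).

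Tnfrsf1b, the receptor, rose at 40 in the core, COOH and NH3 materials. In CuO 40 its levels were 8.68, 8.91 and 8.83, in CuO COOH 40 they were 8.69, 8.87 and 8.81, and in CuO NH3 40 they were 8.76, 8.88 and 9.04. All of these lay above the highest PBS control at 8.17. The changes were 1.08 ± 0.28 for CuO 40 (limma adjusted p = 0.00798), 1.04 ± 0.27 for CuO COOH 40 (0.0111) and 0.96 ± 0.20 for CuO NH3 40 (7e-04). In CuO PEG 40 the levels of 8.59, 8.38 and 8.61 also lay above the PBS controls, and the change was 0.62 ± 0.23 (limma adjusted p = 0.194). The CuO NH3 40 call held with any single sample left out. That of CuO 40 was lost without CuO 40 replicate 2 (1.59, adjusted p = 0.105), and that of CuO COOH 40 without CuO COOH 40 replicate 1 (1.09, 0.0572) or PBS replicate 1 (0.93, 0.391). With array as a random block the changes of CuO 40 and CuO COOH 40 were 0.65 and 0.59, both called, and scaling to the 75th percentile ended the call of CuO COOH 40 (0.99, adjusted p = 0.0703).

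**Figure D2:**
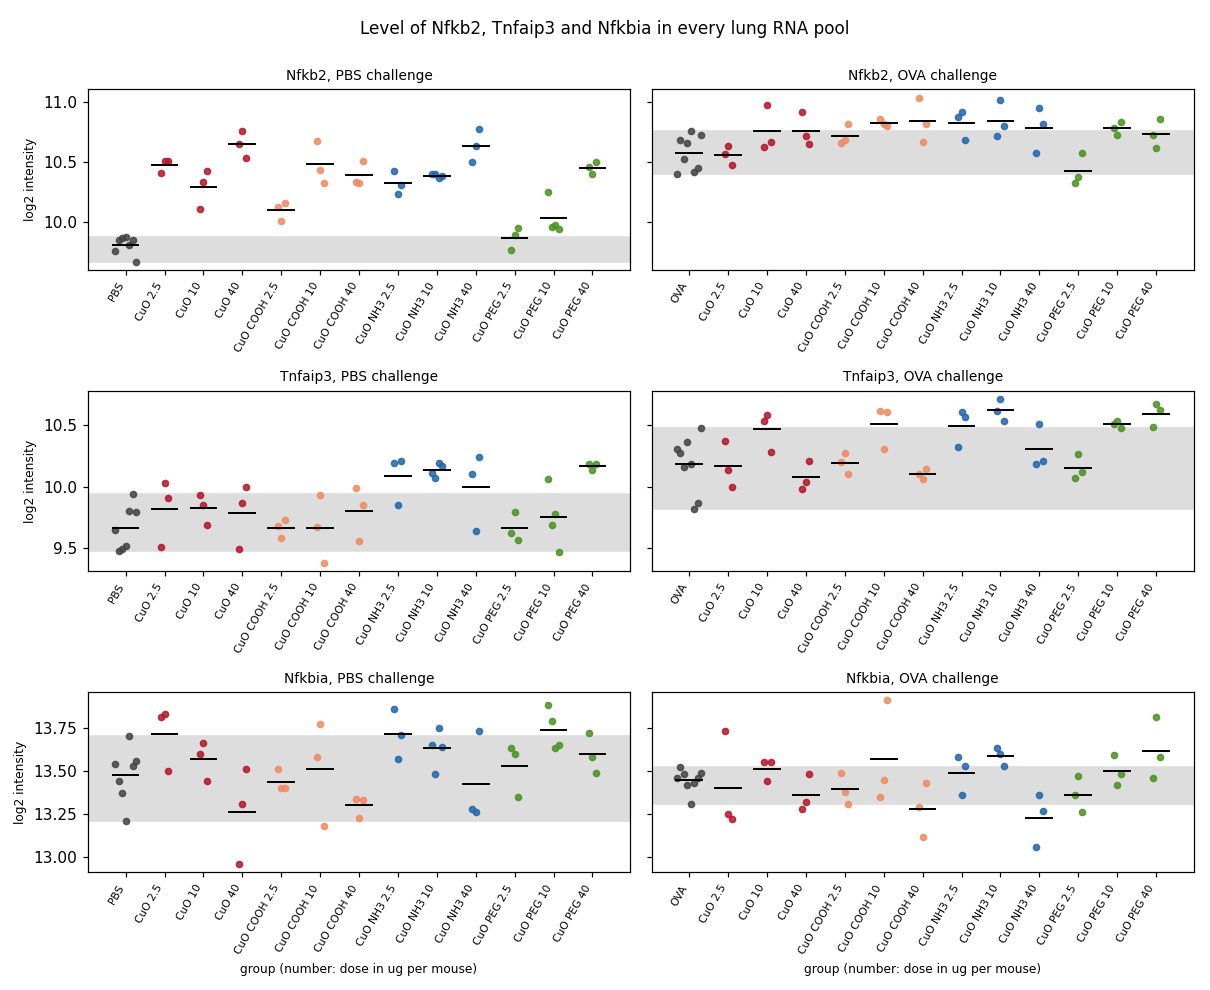
Levels of Nfkb2, Tnfaip3 and Nfkbia in every sample (vertical axis: log2 intensity; horizontal axis: groups by material and dose in μg per mouse, PBS challenge on the left and OVA challenge on the right). Points are samples, bars are group means and the grey band is the range of the controls. All Nfkb2 samples lay above the PBS control band of 9.67 to 9.88 in 11 of 12 exposed groups, and all Nfkbia samples above theirs in 0 of 12. The share of all genes that separated so was not counted.

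Among the feedback genes, Nfkb2 separated most often. All samples lay above all PBS controls in 11 of the 12 exposed groups, CuO PEG 2.5 being the exception. How many of all genes did so was not counted. Nfkb2 levels were 10.65, 10.76 and 10.54 in CuO 40 and 10.50, 10.64 and 10.78 in CuO NH3 40. The changes were 0.96 ± 0.22 in CuO 40 (limma adjusted p = 0.0031), 0.81 ± 0.16 in CuO NH3 40 (0.000341) and 0.86 ± 0.24 in CuO COOH 10 (0.0409), and that of CuO PEG 40 was 0.58 ± 0.18 (0.105). The CuO NH3 40 call held with any single sample left out. That of CuO 40 was lost without CuO 40 replicate 2 (1.31, adjusted p = 0.0958). The call of CuO COOH 10 was lost without its replicate 1 or 3 or PBS replicate 1, 2 or 3 (0.84 to 0.88, adjusted p 0.0579 to 0.335), against the controls of the same slides, and with scaling to the 75th percentile (0.70, 0.188).

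Tnfaip3 was called in CuO NH3 10 alone, at 10.11, 10.07, 10.19 and 10.17 against 9.48 to 9.94 in the PBS controls. The groups did not overlap (change 0.71 ± 0.20, limma adjusted p = 0.0441). The call was lost without any of 8 of the 11 samples, namely CuO NH3 10 replicate 1, 2 or 4 or PBS replicate 2, 3, 4, 5 or 7 (0.60 to 0.74, adjusted p 0.0569 to 0.381). With array as a random block (0.33), dye, slide and position (0.47), dye and slide (0.48) and scaling to the 75th percentile (0.72, adjusted p = 0.231) it was lost as well. It was also lost against the controls of the same slides (0.71, limma adjusted p = 0.151). Tnfaip3 was also above all PBS controls in CuO PEG 40 (10.18, 10.13 and 10.18), where its change of 0.82 ± 0.24 had a limma adjusted p of 0.0711. Nfkbia, the gene of the classical inhibitor IκBα, showed 0 calls by limma in the 24 comparisons with controls, of which 2 had an unadjusted p below 0.05. It lay between 13.21 and 13.70 in the PBS controls. Its group means of 13.26 in CuO 40, 13.42 in CuO NH3 40 and 13.60 in CuO PEG 40 were inside that range. Those of CuO 2.5 (13.71), CuO NH3 2.5 (13.71) and CuO PEG 10 (13.74) lay just above it.

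Nfkbiz, whose product works with NF-κB at genes such as Il6, had group means between 8.29 and 8.87, and its changes against controls ran from -0.19 to 0.46. Its lowest limma adjusted p was 0.0488, with a change below the fold required. Its 2 probes differed in sign in 3 of the 9 comparisons at 40 and between controls. Birc3, the ubiquitin ligase cIAP2 of the TNF receptor complex, had changes from -0.07 to 0.77 and reached an unadjusted p below 0.05 in 5 of 24 comparisons. Its change in CuO PEG 40 was 0.70 ± 0.23 (limma adjusted p = 0.131), with levels from 8.36 to 8.46 against 7.64 to 8.12 in the PBS controls. Tnfaip2, a TNF-inducible gene of myeloid cells and endothelium linked to membrane protrusions, rose in CuO 40 and CuO COOH 40. It was 10.13, 10.50 and 10.21 in CuO 40 and 10.00, 10.00 and 10.15 in CuO COOH 40, against 9.67 to 9.96 in the PBS controls. No sample of either group overlapped the controls, and the changes were 0.80 ± 0.22 (limma adjusted p = 0.0114) and 0.64 ± 0.21 (0.0438). The first call was lost without CuO 40 replicate 2 (1.3, adjusted p = 0.0869). The second was lost without any of the 3 CuO COOH 40 samples or PBS replicate 1, 2 or 3 (0.47 to 0.72, adjusted p 0.0538 to 0.639). With the controls of the same slides only, the first was kept (0.80, limma adjusted p = 0.0165) and the second was lost (0.64, 0.0524). With array as a random block (0.40 and 0.18), dye, slide and position (0.44 and 0.21) or dye and slide (0.46 and 0.25) both were lost, and the second also with scaling to the 75th percentile (0.57).

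Of the adhesion molecules, Icam1 had no call. It was highest in CuO 40, at 10.64 to 11.07 against 10.07 to 10.41 in the PBS controls, and its change there was 0.86 ± 0.33 (limma adjusted p = 0.0778). Vcam1 was called in CuO NH3 40, at 10.06, 9.86 and 9.88 against 9.03 to 9.55 in the PBS controls. These groups did not overlap (change 0.68 ± 0.11, limma adjusted p = 5.29e-05). The 2 Vcam1 probes gave 0.85, which was called, and 0.51, which was below the fold required. Without CuO NH3 40 replicate 1 or PBS replicate 5 the change was 0.56, also below the fold (adjusted p = 0.0365). In CuO 40, CuO COOH 40 and CuO PEG 40 Vcam1 changed by 0.22 ± 0.16, 0.34 ± 0.15 and 0.29 ± 0.13, none of them called. CuO NH3 40 stood above CuO 40 by 0.47 (95% CI 0.22 to 0.72, limma adjusted p = 0.0834).

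**Figure D3:**
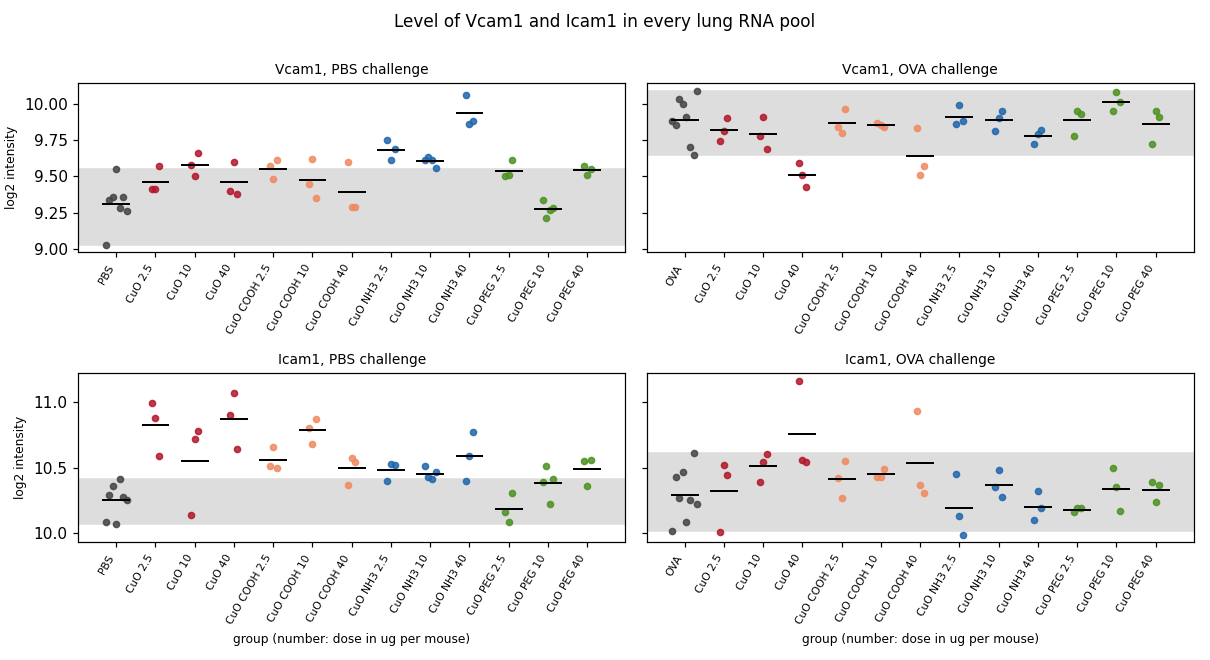
Levels of the adhesion molecules Icam1 and Vcam1 in every sample (vertical axis: log2 intensity; horizontal axis: groups by material and dose in μg per mouse, PBS challenge on the left and OVA challenge on the right). Points are samples, bars are group means and the grey band is the range of the controls; the 3 samples of CuO NH3 40, at 10.06, 9.86 and 9.88, lie above the Vcam1 band of 9.03 to 9.55 under PBS.

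Markers of several cell types also changed in the groups at 40 under PBS. Endothelial markers, which include the cells that carry Vcam1 and Icam1, were called lower in 7 of 10 genes in CuO 40, CuO COOH 40 and CuO NH3 40 and in 0 of 10 by limma in CuO PEG 40 (6 at an unadjusted p below 0.05). Their summed log2 level was 17.15 to 17.49 in the PBS controls, 16.35 to 16.48 in CuO NH3 40 and 16.79 to 16.82 in CuO PEG 40. Neutrophil markers were higher in 5 of 10 genes in CuO 40 and 6 in CuO NH3 40, with 1 lower in each. They were higher in 2 genes in CuO COOH 40 and in 0 by limma in CuO PEG 40 (2 at an unadjusted p below 0.05). Their summed log2 level was 16.07 to 16.47 in the PBS controls, 16.34 to 16.62 in CuO 40, 16.02 to 16.18 in CuO COOH 40, 16.40 to 16.83 in CuO NH3 40 and 16.27 to 16.33 in CuO PEG 40. Monocyte and macrophage markers were higher in 3, 2, 5 and 1 of 9 genes in CuO 40, CuO COOH 40, CuO NH3 40 and CuO PEG 40, with median changes of 0.86, 0.56, 0.93 and 0.43, and 1 was lower in CuO NH3 40. Their summed log2 level was 15.49 to 15.89 in the PBS controls and between 15.41 and 15.66 in all 4 groups. Alveolar macrophage markers were lower in 4, 3, 4 and 3 of 7 genes in CuO 40, CuO COOH 40, CuO NH3 40 and CuO PEG 40. Their summed log2 level fell from a range of 14.65 to 15.28 in the PBS controls to 13.38 to 13.61 in CuO 40 and 13.57 to 13.95 in CuO PEG 40. Among the listed markers, Ngp was well above background in 32 and Epx in 43 of 89 samples. In whole lung, fewer cells of a type and less RNA per cell cannot be told apart, and the part of cell makeup in the member results was not tested.

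In OVA-challenged mice, 3 of the 120 pairs of exposed group and member were called against the OVA controls, again all higher. Tnfaip2 rose in CuO 40 + OVA (1 member, where 1.61% of all genes were called), and Tnf and Tnfrsf1b rose in CuO COOH 40 + OVA (2 members, 3.84%). By limma 0 members were called in the other 10 groups. Genes called there made up 0% in CuO 2.5 + OVA, 0.266% in CuO 10 + OVA, 0.0349% in CuO COOH 2.5 + OVA and 0.663% in CuO COOH 10 + OVA. They made up 0.917%, 2.51% and 3.94% at the rising doses of CuO NH3 + OVA and 0.00436%, 0% and 0.589% at those of CuO PEG + OVA. At an unadjusted p below 0.05, members numbered 1, 2, 3 and 4 in these 4 CuO and CuO COOH groups, 2, 6 and 1 in CuO NH3 + OVA, and 0, 1 and 4 in CuO PEG + OVA.

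Tnf was 8.35, 7.39 and 7.85 in CuO COOH 40 + OVA against 6.86 to 7.35 in the 8 OVA controls. The groups did not overlap, with a change of 0.98 ± 0.25 (limma adjusted p = 0.02). Tnf was as high in CuO 40 + OVA, at 8.12, 7.86 and 7.53, where the within-array change of 1.26 ± 0.36 was not called (limma adjusted p = 0.0767). Tnfrsf1b was 9.71, 9.18 and 9.35 in CuO COOH 40 + OVA against 8.53 to 8.92 in the OVA controls, with a change of 0.75 ± 0.20 (limma adjusted p = 0.0209). Across the 12 OVA-challenged exposed groups, Tnfrsf1b lay above all OVA controls in 10 and Tnf in 5. The share of all genes was not counted there either. In CuO COOH 40 + OVA, 2 of 10 neutrophil and 1 of 9 monocyte and macrophage markers were higher. Alveolar macrophage markers were lower in 4 of 7 genes, T cell markers in 4 of 7 and endothelial markers in 2 of 10. The part of these lists in the Tnf and Tnfrsf1b calls was not tested. Both calls rested on CuO COOH 40 + OVA replicate 1 and OVA replicate 1, which shared an array. Without either, Tnf changed by 0.36 (adjusted p = 0.851) and Tnfrsf1b by 0.24 (0.881). Both calls were lost with scaling to the 75th percentile (Tnf 1.18, adjusted p = 0.295, and Tnfrsf1b 0.75, 0.12), and that of Tnfrsf1b fell below the fold with array as a random block (0.52), where Tnf was called at 0.65.

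Tnfaip2 was 10.61, 10.50 and 10.42 in CuO 40 + OVA against 10.07 to 10.25 in the OVA controls, without overlap (change 0.84 ± 0.21, limma adjusted p = 0.0453). The call was lost without any of the 3 CuO 40 + OVA samples or OVA replicate 1, 2, 3, 6 or 7 (0.70 to 1.1, adjusted p 0.0507 to 0.379), and against the controls of the same slides (0.84, adjusted p = 0.0663). It was also lost with scaling to the 75th percentile (0.75, adjusted p = 0.175) and, below the fold, with array as a random block (0.32), with dye, slide and position (0.36) and with dye and slide (0.39). The number of calls in OVA-challenged mice depended on the batch terms. It was 12 with array as a random block, 10 with dye, slide and position, and 11 with dye and slide. In CuO 2.5 + OVA the fit rested on replicate 2, since replicates 1 and 3 were alone on their arrays and added nothing to a comparison within arrays. CuO COOH 2.5 replicate 2, alone on its array, and CuO COOH 10 replicate 2, which shared an array with CuO 2.5 + OVA replicate 2, likewise added nothing to the comparisons with PBS controls. The CuO COOH 10 calls of Tnf and Nfkb2 therefore rest on replicates 1 and 3.

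The response to the materials at 40 was compared between the challenges, and Vcam1 was the 1 member called. At 40, CuO NH3 changed it by 0.68 under PBS and by -0.05 ± 0.12 under OVA. The difference, OVA minus PBS, was -0.73 (95% CI -1.05 to -0.42, limma adjusted p = 0.00924), where 1.58% of all genes were called. The levels in CuO NH3 40 + OVA, at 9.72, 9.79 and 9.82, lay within the OVA controls (9.65 to 10.09), which in turn lay above the PBS controls. Endothelial markers were lower there in 4 of 10 genes, with a summed log2 level of 16.06 to 16.28 against 16.55 to 16.96 in the OVA controls, and their part was not tested. The call was lost without CuO NH3 40 replicate 1 or PBS replicate 5 (-0.62, adjusted p = 0.216), CuO NH3 40 + OVA replicate 1 (-0.71, 0.0773), or OVA replicate 8 or CuO NH3 40 + OVA replicate 3 (-0.69, 0.0528). It was also lost with the controls of the same slides (-0.68, 0.0904) and with scaling to the 75th percentile (-0.76, 0.0723), and 1 of the 2 probes gave -0.78 with an adjusted p of 0.078. For core CuO (1.11% of genes called), CuO COOH (1.14%) and CuO PEG (0%), limma called 0 members, with 0, 1 and 0 at an unadjusted p below 0.05. The 1 was Vcam1 in CuO COOH 40, at -0.53 (95% CI -0.90 to -0.16, adjusted p = 0.23).

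**Figure D4:**
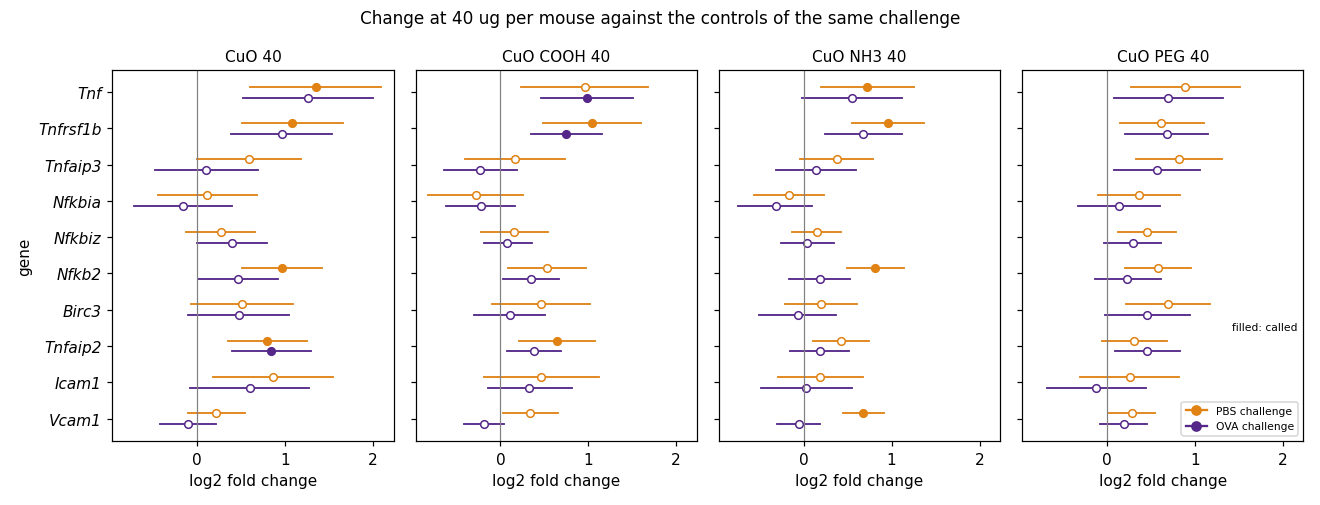
Fitted log2 fold change against the controls of the same challenge for the 10 members at 40 μg per mouse, for each material under PBS and OVA challenge (horizontal axis: log2 fold change; bars: 95% confidence intervals; filled points: called). Tnf in CuO 40 stands at 1.35 under PBS and 1.26 under OVA, and Vcam1 in CuO NH3 40 at 0.68 and -0.05.

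The 3 modified materials were compared with core CuO at each dose and challenge, which gave 18 comparisons. Over all of them 0.508% of genes were called, and 2 member calls were made, both of CuO PEG against CuO at 2.5 under PBS. In that comparison 1.86% of genes were called. Tnf was lower in CuO PEG 2.5 by 1.05 on the log2 scale (difference -1.05, 95% CI -1.57 to -0.53, limma adjusted p = 0.0108), and its 3 samples (6.28, 6.38 and 6.52) did not overlap those of CuO 2.5 (7.37, 7.43 and 7.53). Nfkb2 was lower too, at 9.77, 9.89 and 9.95 against 10.41, 10.51 and 10.51, again without overlap (difference -0.61, 95% CI -0.90 to -0.32, limma adjusted p = 0.00749). These materials lay on different slides, and their difference rests on the controls shared by all slides. Without CuO 2.5 replicate 3 both calls were lost (Tnf -0.99, adjusted p = 0.0755; Nfkb2 -0.58, 0.0543), and that of Nfkb2 also without CuO PEG 2.5 replicate 1 (-0.56, below the fold). The Nfkb2 call was lost with dye and array as terms (-0.82, adjusted p = 0.066) and fell below the fold with dye and slide (-0.56) and with scaling to the 75th percentile (-0.57), while that of Tnf held. At 40 under PBS, Tnf in the modified materials differed from CuO 40 by -0.19 for COOH (95% CI -0.59 to 0.22), -0.26 for NH3 (-0.75 to 0.24) and -0.14 for PEG (-0.63 to 0.35). These intervals include both no difference and a difference of more than the fold used for calls, so they do not show that the materials acted alike. Limma adjusted p-values were taken over all genes within each comparison.

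Comparing 40 with 2.5 of the same material, 7 member calls were made, all of them higher at 40. In core CuO under PBS, limma called 0 members where 5.6% of genes were called (1 at an unadjusted p below 0.05). Tnfrsf1b was higher by 0.61 ± 0.16 in CuO COOH (6.37%, limma adjusted p = 0.00397) and by 0.73 ± 0.15 in CuO NH3 (7.36%, 0.000138). In CuO PEG (2.62%), Tnf was higher by 0.76 ± 0.21 (limma adjusted p = 0.015) and Nfkb2 by 0.58 ± 0.12 (0.000373). In CuO + OVA (3.63%), Tnf was higher by 0.97, at 8.12, 7.86 and 7.53 against 6.82, 6.92 and 6.86 (limma adjusted p = 0.000672), without overlap. In CuO PEG + OVA (1.43%), Tnf was higher by 0.75 ± 0.21 (limma adjusted p = 0.0337) and Tnfrsf1b by 0.70 ± 0.16 (0.0062). In CuO COOH + OVA (3.09%) and CuO NH3 + OVA (3.2%), 0 members were called by limma. Members with an unadjusted p below 0.05 numbered 2 and 2 there.

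Of these 7 calls, Tnfrsf1b in CuO NH3 and Tnf in CuO + OVA held with any single sample left out. Tnfrsf1b in CuO COOH fell below the fold without CuO COOH 2.5 replicate 1 or 2 or CuO COOH 40 replicate 2 (0.53 to 0.57). In CuO PEG, both calls were lost without CuO PEG 2.5 replicate 1 or CuO PEG 40 replicate 3 (Tnf 0.65 to 0.69, adjusted p 0.0866 to 0.106; Nfkb2 0.53 to 0.56, below the fold). In CuO PEG + OVA, Tnfrsf1b was lost without CuO PEG 40 + OVA replicate 1 or 3 (0.55 to 0.63, adjusted p 0.0594 to 0.203). Tnf there was lost without any of CuO PEG 2.5 + OVA replicate 1, 2 or 3 or CuO PEG 40 + OVA replicate 1 or 3 (0.55 to 0.84, adjusted p 0.0512 to 0.458).

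Other processing ended 6 of the 7 dose calls, all but Tnfrsf1b in CuO NH3. With dye and array as terms, Tnf in CuO + OVA (0.92, adjusted p = 1), Tnf in CuO PEG (1.01, 0.0844), Nfkb2 in CuO PEG (0.65, 0.0666) and Tnfrsf1b in CuO COOH (0.56, 0.642) were lost. In CuO PEG + OVA that setting ended both calls (Tnf 0.62, adjusted p = 0.821, and Tnfrsf1b 0.56, 0.739). Array as a random block ended that of Tnf there (0.65, adjusted p = 0.0734). Scaling to the 75th percentile ended the Tnf calls of CuO PEG (0.75, adjusted p = 0.175) and CuO PEG + OVA (0.78, 0.222). Nfkb2 in CuO PEG lay at the fold and went below it with normexp correction (0.57), dye and slide (0.57) and 75th percentile scaling (0.58), and so did Tnfrsf1b in CuO COOH with normexp (0.58).

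Over all 26 groups, mean Tnf ran from 6.39 in CuO PEG 2.5 to 7.90 in CuO COOH 10 + OVA, the widest span of the 10 members at 1.51. Tnfrsf1b ran from 8.03 in the PBS controls to 9.47 in CuO PEG 10 + OVA, and Nfkb2 from 9.81 in the PBS controls to 10.85 in CuO NH3 10 + OVA. The 4 groups with the highest Tnf after CuO COOH 10 + OVA were the 4 materials at 40 with OVA, at 7.86 (COOH), 7.84 (core), 7.73 (PEG) and 7.69 (NH3). Vcam1 had a narrower span, from 9.28 in CuO PEG 10 to 10.01 in CuO PEG 10 + OVA, and Nfkbia the narrowest, from 13.23 in CuO NH3 40 + OVA to 13.74 in CuO PEG 10. With the groups in order of level, neighbouring means differed by more than the pooled SD in 1 of 25 steps for Tnf (SD 0.23), 2 for Tnfrsf1b (0.17), 2 for Nfkb2 (0.12) and 0 for the other 7. The SD is that of single samples, and steps between 26 ordered means are small in any case. These counts therefore cannot show whether groups differed, and the order of neighbouring groups was not tested.

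**Figure D5:**
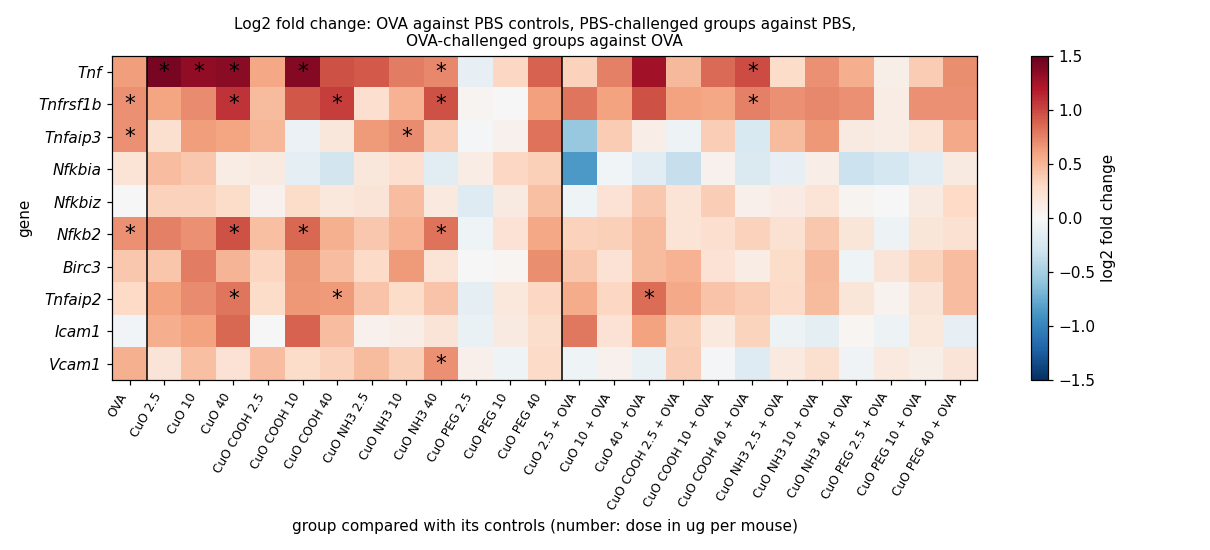
Fitted log2 fold change of the 10 members in the 25 comparisons with controls (columns: OVA against PBS controls, then each exposed group against the controls of its challenge; colour: log2 fold change; stars: called). Stars mark 15 of 120 exposed pairs under PBS (Tnf 5, Tnfrsf1b 3, Nfkb2 3, Tnfaip2 2, Tnfaip3 1 and Vcam1 1) and 3 of 120 under OVA. The share of all genes called in a comparison ran from 0% to 14.1% under PBS and from 0% to 3.94% under OVA.

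The circuit around these members was read from 75 measured genes of the TNF and NF-κB pathway. In the OVA controls 13 were higher and 0 lower than in the PBS controls, where 5.22% of all genes were called. At 40 under PBS, 21 were higher and 5 lower in CuO (14.1% of all genes called), 16 and 3 in CuO COOH (10.3%), 20 and 5 in CuO NH3 (13.2%), and 10 and 0 in CuO PEG (2.23%). Under OVA the counts were 4 and 1 (1.61%), 3 and 5 (3.84%), 4 and 3 (3.94%), and 0 and 0 (0.589%) for the same materials (9 at an unadjusted p below 0.05 by limma in CuO PEG 40 + OVA). The 10 kinases, such as the IκB kinases Chuk and Ikbkb, and the 4 other NF-κB subunits (Rela, Relb, Rel and Nfkb1) had 0 limma calls in all 9 comparisons. At an unadjusted p below 0.05, at most 3 kinases and 2 subunits passed in any of them. Of the 18 listed targets, 10 rose and 1 fell in CuO 40, and 6 rose and 1 fell in CuO COOH 40. In CuO NH3 40, 11 rose and 2 fell, and in CuO PEG 40, 5 rose and 0 fell. With OVA, 3 rose and 0 fell for CuO, 1 and 2 for CuO COOH, and 1 and 2 for CuO NH3. For CuO PEG 40 + OVA limma called 0 targets (4 at an unadjusted p below 0.05).

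Among targets, the neutrophil chemokine Cxcl1 rose by 3.85 ± 0.54 in CuO 40, 2.85 ± 0.52 in CuO COOH 40, 2.93 ± 0.38 in CuO NH3 40 and 3.49 ± 0.45 in CuO PEG 40, and by 2.26 ± 0.32 in the OVA controls. The cytokine Il6 rose by 2.54, 1.89, 2.42 and 1.59 in the same 4 groups. Ccl20 and Cxcl2, chemokines for CCR6-bearing cells and neutrophils, rose by 2.91 and 2.45 in CuO 40 and changed by 0.74 and 0.59 in CuO PEG 40, where neither was called. Among brakes, Tnip3, a partner of A20, rose by 1.44 in the OVA controls, by 2.11 in CuO 40 and by 1.68 in CuO PEG 40, and Socs3, an inhibitor of cytokine receptor signalling, by 0.75, 1.33 and 0.87. The IκB proteins Bcl3 and Nfkbie rose by 1.16 and 0.78 in the OVA controls and by 0.92 and 0.80 in CuO PEG 40. Tnfaip8l2 rose in the OVA controls (0.72).

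Among receptors, Tnfrsf12a, the receptor of TWEAK, rose by 1.59 in CuO 40, 1.85 in CuO COOH 40 and 1.71 in CuO NH3 40, and changed by 0.35 in CuO PEG 40 and 0.07 in the OVA controls, where it was not called. Tnfrsf9, the costimulatory receptor 4-1BB, rose by 1.12 in the OVA controls and by 1.04 to 1.17 in all 4 materials at 40. Tlr2 rose in CuO 40 (0.98) and CuO COOH 40 (0.92). Tnfrsf13c, the BAFF receptor of B cells, fell by 1.07 in CuO 40 and by 0.70 in CuO NH3 40. B cell markers were lower in 3 of 4 genes in both groups, with a summed log2 level of 11.81 to 12.94 in the PBS controls, 10.69 to 11.06 in CuO 40 and 10.80 to 11.56 in CuO NH3 40, and their part was not tested. Among ligands, Tnfsf9 and Tnfsf14 rose by 1.56 and 1.61 in CuO 40, and Tnfsf10, the death ligand TRAIL, fell by 1.74 in CuO 40, 1.43 in CuO COOH 40 and 1.1 in CuO NH3 40. Lta rose by 0.60 in the OVA controls. Among adapters, Myd88, the adapter of Toll-like and IL-1 receptors, rose by 1.00 in CuO 40 and Traf2 by 0.84, while Traf5 fell by 0.79. Traf1, an adapter found mainly in activated lymphocytes, fell in 6 comparisons, by 1.16, 1.23 and 0.94 in CuO 40, CuO COOH 40 and CuO NH3 40 and by 0.92, 0.78 and 1.04 in the same groups with OVA. T cell markers were lower in 4 of 7 genes in CuO 40, CuO COOH 40 and CuO NH3 40 and in 3, 4 and 5 of 7 with OVA. Their summed log2 level ran from 11.91 to 12.36 in the PBS controls and from 10.72 to 10.96 in CuO 40, and their part in the change of Traf1 was not tested.

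The genes with group means most like those of Tnf across the 26 groups, among 13966 searched, were Ccl4 (r = 0.941), Acod1 (0.924) and Ccl3 (0.916). For Tnfaip3 they were 4930512J16Rik (0.918), Scimp (0.917) and Mefv (0.914), and for Vcam1 they were Ffar2 (0.914), Hmga2-ps1 (0.887) and Gfi1b (0.869). These Pearson correlations describe group means that share slides and normalisation.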

How the data were processed

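Whole-lung RNA of 89 pooled samples was hybridised to 2-colour mouse arrays on 6 slides, with unrelated samples in the Cy3 and Cy5 channels (dyes taken from the labels). The deposited scanner files hold spot intensities from Agilent Feature Extraction (version 12.0.2.2 in the file headers), with other columns for flags and probe names. The deposited value table holds log2 values that the authors made from median foreground intensities and quantile normalisation. Their methods name a batch adjustment, and each of the 89 columns kept the rank order of its scanner channel.

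Here the median foreground intensities of both channels were quantile-normalised and averaged by probe (56605 probes) and by gene (32994 probes with a gene, 22911 genes). limma 3.58.1 in R 4.3.3 tested the log2 values, with Benjamini-Hochberg adjustment over all genes. Dye and array were fixed terms for comparisons with controls, and dye, slide and position for comparisons of materials and doses. The method was tested on simulated data.

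The members and gene lists were chosen with earlier results of these data known. All 10 members were named in every comparison. Of the pathway list, up to 4 called genes a role were named, those with the largest mean absolute change. For Tnf, Tnfaip3 and Vcam1, the 3 genes of most similar group means were named. Spots well above background made up a median of 60.5% (46.7 to 68.5) in Cy3 and 58.8% (50.4 to 68.8) in Cy5, with 0 saturated spots, and the number of arrays limits the precision. Replicate numbers were not taken to pair samples. Over 24 comparisons with controls, 0 had every same-numbered pair correlated above 0.1 (range -0.321 to 0.295). Alternatives were normexp background correction (offset 50), scaling to the 75th percentile, a filter on dim probes, the deposited table, other batch terms, single probes, other sets of controls and each sample left out.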

Additional observations from a re-analysis of the deposited data

Results flagged for a closer look

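In CuO PEG 10, replicate 1 stood above its 3 fellow samples for several members at once. Nfkb2 was 10.25 there against 9.98 in the next highest sample, Birc3 was 8.22 against 7.75, and Tnfaip2 was 10.47 against 9.93. These gaps passed Dixon's criterion for a stray value in 3 of the 40 sets of samples examined, and chance alone marks about 1 in 20 sets. All 3 gaps came from the 1 sample, and the sets repeat the same samples across members. That rate therefore cannot judge the 3 gaps together. The same sample held the highest Tnf of the group, at 7.44.

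The Vcam1 response to CuO NH3 40 differed between challenges by -0.73 on the log2 scale (OVA minus PBS, adjusted p = 0.00924 by limma), a test of the difference itself. The call was lost without any of 5 single samples, as given with the result.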

How the results depend on the processing

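No called member changed direction under any alternative. Scaling to the 75th percentile, which moved the median of all genes by -0.36 to 0.80, gave 1 member call for OVA against PBS controls, 6 for exposed groups against PBS controls, 0 against OVA controls, 0 for the difference between challenges, 1 for modified against core material, 4 for dose and 65 pathway genes called, against 3, 15, 3, 1, 2, 7 and 113 as reported. Against OVA controls, calls numbered 12 with array as a random block, 10 with the batch terms exchanged between designs, 11 with dye and slide, and 14 with the replicate block and dye. For the difference between challenges the same settings gave 3, 4, 4 and 3. The replicate block gave 22 calls against PBS controls, and ended those of Nfkb2 (0.54) and Vcam1 (0.57) in CuO NH3 40, Tnfaip2 in CuO 40 (0.43) and CuO COOH 40 (0.21), and Tnfaip3 in CuO NH3 10 (0.15). It also ended those of Tnfaip3 in the OVA controls (0.53) and Tnfaip2 in CuO 40 + OVA (0.38). With terms exchanged, materials gave 1 and dose 2. With dye and slide, materials gave 1. Controls of the same slides gave 8 calls against PBS and 0 for the difference between challenges. Controls of slides 4 to 6 alone, a split chosen after seeing the data, gave 0 for OVA against PBS. Requiring every probe gave 8 against PBS, 0 for the difference, 0 for materials and 4 for dose. The cause was not tested.

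Leaving out each sample in turn gave 1 to 4 calls for OVA against PBS controls, 7 to 18 against PBS, 2 to 7 against OVA, 0 to 1 for the difference, 0 to 3 for materials, 4 to 8 for dose and 79 to 120 pathway genes called. Of 31 member calls, 5 were kept in every such fit. Normexp correction, the dim filter and the deposited table moved no count by more than 1.5 times.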

Other observations

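CuO PEG 10 was the group with the highest mean Nfkbia (13.74) and the lowest mean Vcam1 (9.28) of the 26. With OVA, the same material and dose had the highest mean Vcam1 (10.01) and the highest mean Tnfrsf1b (9.47). Vcam1 in CuO 40 + OVA (9.59, 9.51 and 9.43) lay below all 8 OVA controls, the 1 exposed group in which all Vcam1 samples were below all controls of their challenge, with a fitted change of -0.10 that limma did not call (adjusted p = 0.881). Nfkbiz lay above all controls of its challenge in 8 of 12 exposed groups under PBS and in 7 of 12 under OVA, without a limma call in any of the 24 comparisons (4 at an unadjusted p below 0.05). How many of all genes separated this often was not counted. The lowest limma adjusted p of Nfkbiz in these comparisons was 0.0488, but its changes, at most 0.46, were below the fold required. The Nfkbiz probes differed in sign in 3 of the 9 comparisons at 40 and between controls.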
